A study of Rattus norvegicus with 9 samples.

Results

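The expression of 30 genes of cholesterol synthesis, uptake control and efflux was examined in rat knee synovium and in regenerating meniscal tissue. The genes were taken by name as the enzymes from acetyl-CoA to cholesterol, the branch enzyme to longer isoprenoids, the sensors and transcription factor that control the pathway, an intracellular sterol carrier, the sterol esterifying enzyme, and the liver X receptors (LXRs) with their efflux targets. All 30 were listed among the 17602 genes of the deposited table, and all 30 met the requirement for testing, a TPM above 0 in 3 or more of the 9 libraries, as did 16512 genes in total. Of these 30, 18 were synthesis enzymes and 5 belonged to the LXR and efflux set (Nr1h3, Nr1h2, Abca1, Abcg1 and Mylip). Other genes of these pathways are described below from fixed lists, and genes on neither list were not analysed here.

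Every animal was a wild-type male Lewis rat of 10 to 12 weeks. The Intact group was synovium, the lining of the joint, from around the medial meniscus of knees with no surgery. For the Sham group, the same synovial site was sampled 1 week after the joint capsule was opened and closed. The pMx group was the tissue regrowing at the cut edge 1 week after partial medial meniscectomy, in which the front portion of the medial meniscus was removed, and the synovium around it had been trimmed off. Each group had 3 libraries labelled as biological replicates, although the sources used here do not say whether a library held tissue of 1 knee or of several. Surgery type and tissue sampled both differ between pMx and Sham, so their parts in any difference cannot be told apart. Because these were bulk tissues, fewer cells of a type and less RNA per cell cannot be told apart either.

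Animal cells build cholesterol from acetyl-CoA, by way of mevalonate, farnesyl diphosphate, squalene and lanosterol. When sterols in the endoplasmic reticulum run low, the sensor SCAP escorts SREBP2, the product of Srebf2, to the Golgi, where it is cut and freed to switch on the synthesis genes, while the INSIG proteins hold SCAP back when sterols are plentiful. Excess sterol acts in the opposite way: oxysterols activate the LXRs, which switch on the exporters ABCA1 and ABCG1 and MYLIP, a ubiquitin ligase that removes lipoprotein receptors from the cell surface. The synovial lining holds fibroblasts and macrophages and sits on fat, and macrophages and adipocytes are both rich in LXR activity.

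The values were TPM, which divide by transcript length and bring each library to a total of 1000000 transcripts, so levels of different genes can be set side by side. Read numbers are not kept in TPM, and the depth is therefore unknown. The error given throughout comes from a spread that limma estimated over all 9 libraries. The Intact libraries thus also enter the error of pMx versus sham. Changes are differences of log2(TPM + 1) from limma with its standard error (SE), and "rose" or "fell" is used for an adjusted p below 0.05, while a differentially expressed gene (DEG) also had an absolute log2 fold change above 1. The added 1 makes the log2 changes of genes near or below 1 TPM smaller than their TPM ratios. As to the libraries themselves, Intact replicate 3 stood apart with a summed level of 10 skeletal muscle markers of 42323 TPM, against 59.9 to 2873 TPM in the other 8 libraries. The synovial lubricin gene Prg4 was at 1084 to 2986 TPM in all 9 libraries. Prg4 was 1 of 10 synovial fibroblast markers listed, of which 4 rose and 3 fell in pMx versus sham. Among those that fell, Clic5 had a mean of 239 TPM in Sham and 13.1 TPM in pMx, and Cd55 177 and 86.3 TPM. The labelled pMx tissue had high levels of the cartilage proteoglycan gene Acan (182 to 236 TPM) but hardly any Col2a1, the main collagen of hyaline cartilage (0.56 to 0.89 TPM). RNA integrity in the study's quality table was lowest in Intact and highest in pMx, and its part in the results was not tested.

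In pMx tissue the synthesis pathway stood higher than in sham synovium along nearly its whole length. Of the 18 synthesis enzymes 13 rose, 1 fell and 4 did not pass, with a median log2 fold change of 0.73 against -0.01 for all genes tested. Over all genes, 17.7% were called higher and 18.9% lower in this comparison. The 13 that rose did so by 1.49-fold to 2.82-fold in mean TPM. Of the 5 LXR and efflux genes 3 fell, none rose (also none at an unadjusted p below 0.05 in limma) and the median was -0.63. Across the 30 genes 16 rose, 6 fell and 8 did not pass. When only the 6 Sham and pMx libraries were fitted, 15 enzymes and 19 of the 30 genes rose. Without Intact replicate 3 these numbers were 14 and 18. The DEG rule was met by 4 of the 30, namely Sqle, Cyp51 and Msmo1 upward and Nr1h3 downward, where 8.21% of all genes met it. This count was 7 or 9 with the smaller pseudocounts of 0.1 or 0.01, and 7 without Sham replicate 1 or without pMx replicate 2.

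**Figure D1:**
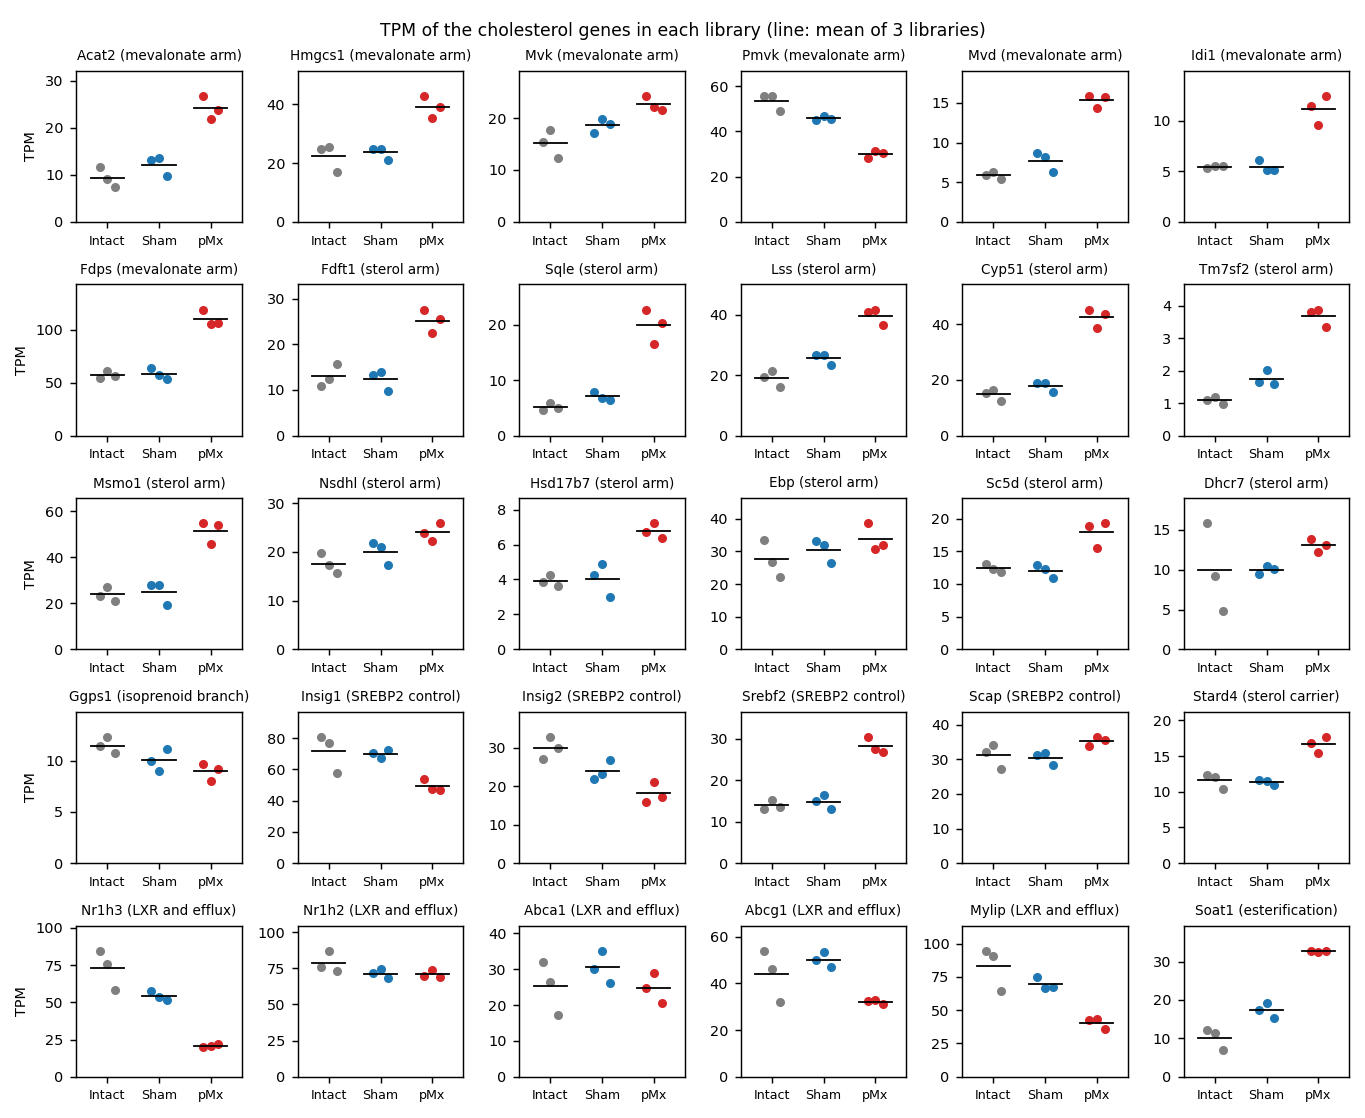
TPM of each of the 30 cholesterol genes (vertical axes, each starting at 0) in the Intact, Sham and pMx groups (horizontal axes). Points are single libraries and lines the means of 3. The 3 pMx libraries lie above all 3 Sham libraries for 20 genes and below all of them for 6, of which 4 in total did not pass. How many of all genes separate in this way was not counted.

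The mevalonate arm, which runs from acetyl-CoA to farnesyl diphosphate, had 7 members, of which 5 rose and 1 fell. Fdps, farnesyl diphosphate synthase, was the most abundant of the synthesis enzymes. It was at 54.7, 61.5 and 56.0 TPM in Intact, at 64.2, 57.1 and 53.1 TPM in Sham and at 119, 105 and 107 TPM in pMx. Intact and Sham libraries were intermingled, and all 3 pMx libraries lay far above both. Against Sham, the log2 fold change was 0.92 (SE 0.085, adjusted p = 0.00012).

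Hmgcs1, the synthase that makes HMG-CoA at the head of the pathway, was at 24.6, 25.4 and 16.9 TPM in Intact. Its Sham libraries were at 24.9, 24.9 and 21.1 TPM and its pMx libraries at 42.9, 35.2 and 39.0 TPM. The pMx libraries again did not overlap the others, with a log2 fold change of 0.70 (SE 0.15, adjusted p = 0.00768). Acat2, whose thiolase supplies acetoacetyl-CoA, was at 9.74 to 13.6 TPM in Sham and 22.0 to 26.8 TPM in pMx, a log2 fold change of 0.94. Its near copy Acat2l1 was at 2.29 to 3.16 TPM in Sham and at the lower levels of 0.26 to 1.04 TPM in pMx. How reads were shared between such copies is not given in the sources used here. RefSeq also names copies or pseudogenes of Cyp51, Fdps, Idi1 and Nsdhl, none of which the table lists, so the values of these genes are uncertain to that extent.

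Mvd, the decarboxylase that yields isopentenyl diphosphate, was at 6.23 to 8.65 TPM in Sham and at 14.3 to 15.9 TPM in pMx, with a log2 fold change of 0.92 (SE 0.12). Idi1, the isomerase acting next, had Sham levels of 5.14 to 6.10 TPM and pMx levels of 9.56 to 12.5 TPM, a log2 fold change of 0.91. Mvk, mevalonate kinase, was at 17.2, 19.8 and 18.8 TPM in Sham and 24.3, 22.1 and 21.5 TPM in pMx. Although these groups did not overlap, Mvk did not pass the test (log2 fold change 0.27, adjusted p = 0.123). It did pass in 1 of the 9 analyses that left out a library.

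Pmvk, the kinase that acts between Mvk and Mvd, was the exception in direction. Its levels were 55.7, 55.8 and 48.9 TPM in Intact, 45.1, 47.0 and 45.4 TPM in Sham and 28.4, 31.2 and 30.4 TPM in pMx. The 3 groups formed separate steps with pMx lowest, and the 3 Sham values lay within 2 TPM of each other. Its log2 fold change against Sham was -0.59, with the smallest standard error of the 30 genes (0.067, adjusted p = 0.000278). Pmvk was the only synthesis enzyme that fell, and it passed in this direction in all 19 alternative analyses.

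The sterol arm from squalene to cholesterol had 11 members, of which 8 rose and none fell, either in limma's adjusted test or at an unadjusted p below 0.05. Sqle, squalene epoxidase, a rate-limiting step of this arm, had the largest increase of the 30 genes. It was at 4.58, 5.83 and 4.90 TPM in Intact, at 7.91, 6.80 and 6.47 TPM in Sham and at 22.7, 16.6 and 20.4 TPM in pMx. All pMx libraries lay above all Sham libraries, and all Sham libraries above all Intact ones. Mean TPM was 2.82-fold higher in pMx than in Sham (log2 fold change 1.37, SE 0.14, adjusted p = 0.000154).

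Cyp51, the lanosterol demethylase, was at 15.4, 16.4 and 12.6 TPM in Intact and at 18.8, 18.98 and 15.8 TPM in Sham. Its pMx libraries were at 45.2, 38.6 and 43.7 TPM. The pMx libraries were separate from the rest, whereas Intact and Sham overlapped, with a log2 fold change of 1.21 for pMx against Sham (SE 0.12, adjusted p = 0.000137). Msmo1, which oxidizes the methyl groups of the intermediates after Cyp51, had the highest pMx level of this arm. Its levels were 23.2, 27.2 and 21.0 TPM in Intact, 28.1, 28.0 and 19.2 TPM in Sham and 54.7, 45.6 and 53.8 TPM in pMx. Here too only the pMx libraries stood apart (log2 fold change 1.02, SE 0.16, adjusted p = 0.00131).

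Fdft1, squalene synthase, which commits farnesyl diphosphate to sterols, rose from 9.87 to 14.0 TPM in Sham to 22.4 to 27.6 TPM in pMx (log2 fold change 0.98). Lss, which closes the sterol rings to give lanosterol, rose from 23.4 to 26.7 TPM to 36.7 to 41.7 TPM (0.62). Tm7sf2, a sterol reductase and the least abundant of the 18 enzymes, rose from 1.58 to 2.02 TPM to 3.34 to 3.88 TPM, a 2.09-fold change in mean TPM that reads 0.76 on the log2(TPM + 1) scale. Hsd17b7 and Sc5d, a keto-reductase and a desaturase of the later steps, rose with log2 fold changes of 0.64 and 0.53. The 3 members of this arm that did not pass were Nsdhl at 0.26, Ebp at 0.15 and Dhcr7 at 0.36, which act as a dehydrogenase, an isomerase and the reductase that makes cholesterol itself. Of these, Nsdhl and Dhcr7 had pMx libraries that all lay above the Sham libraries, and the interval of Dhcr7 was the widest of the 30 genes (-0.37 to 1.08), with Intact libraries at 15.8, 9.23 and 4.76 TPM.

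**Figure D2:**
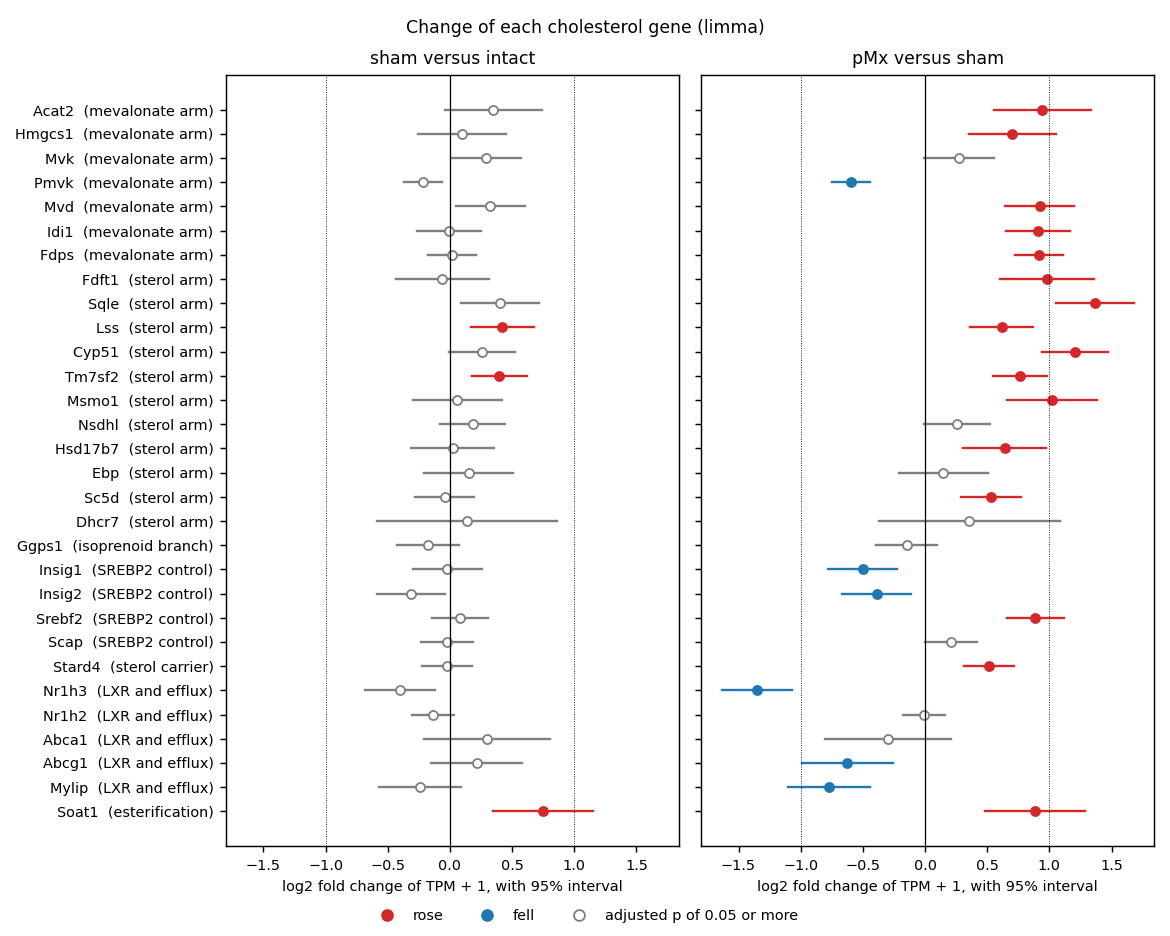
Difference of log2(TPM + 1) for the 30 genes in sham versus intact (left) and pMx versus sham (right). Points are limma estimates, bars their 95% intervals, filled points have an adjusted p below 0.05, and dotted lines mark an absolute change of 1. The 18 synthesis enzymes lie between -0.22 and 0.42 on the left, while 13 of them lie between 0.53 and 1.37 on the right and Pmvk is at -0.59.

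The genes that control the pathway did not all move with the enzymes. Srebf2, the gene of SREBP2, was at 13.1, 15.3 and 13.5 TPM in Intact, at 15.04, 16.5 and 13.1 TPM in Sham and at 30.5, 27.5 and 26.9 TPM in pMx. Intact and Sham overlapped and pMx stood clear above them, a 1.90-fold rise in mean TPM over Sham (log2 fold change 0.89, SE 0.099, adjusted p = 0.000267). Scap, the escort of SREBP2, was at 28.3 to 32 TPM in Sham and 33.8 to 36.5 TPM in pMx, which did not overlap but did not pass (0.21, adjusted p = 0.115). Scap did pass in 1 of the 9 analyses that left out a library.

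Both INSIG genes fell. Insig1, which SREBP2 itself is known to switch on, was at 80.8, 76.8 and 57.7 TPM in Intact, at 70.4, 67.0 and 72.6 TPM in Sham and at 53.8, 47.3 and 46.6 TPM in pMx. The pMx libraries lay below every other library, and the log2 fold change against Sham was -0.50 (SE 0.12, adjusted p = 0.0121). The direction of Insig1 was thus opposite to that of the 13 enzymes that rose. Insig2 was at 21.9, 23.3 and 26.7 TPM in Sham and at 16.0, 21.2 and 17.2 TPM in pMx. These groups were separate by a narrow margin (-0.39, adjusted p = 0.0345), and Insig2 no longer passed when Sham replicate 2 or 3, or pMx replicate 1 or 3, was left out, with adjusted p up to 0.121.

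Stard4, a small sterol carrier of the cytosol, rose from 10.9 to 11.7 TPM in Sham to 15.5 to 17.7 TPM in pMx (0.51, adjusted p = 0.0023). Ggps1, which diverts farnesyl diphosphate to geranylgeranyl diphosphate, was at 8.97 to 11.2 TPM in Sham and 8 to 9.71 TPM in pMx, which overlapped (-0.15, adjusted p = 0.325). The isoprenoid branch therefore did not share the increase of Fdps and Fdft1 on either side of it, though the difference between these genes was not tested.

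Promoter sequence was compared across the genes because most synthesis enzymes are known to be switched on by SREBP2 with the partner factor NF-Y, whose binding box reads CCAAT. The windows were those of RefSeq on assembly GRCr8, running from 250 bases before to 50 bases after each gene's start, which is another build than the mRatBN7.2 that the submitters' processing notes name. A window was given for 25 of the 30 genes, and Pmvk, Fdft1, Sqle, Stard4 and Abcg1 had none. CCAAT, on either strand, was in 18 of these 25 windows (72.0%), against 37.5% of all 33469 windows and 36.9% of the 15327 windows of tested genes. It was in 12 of 15 windows of synthesis enzymes (80.0%) and in 1 of 4 of the LXR and efflux set. By response to pMx versus sham, 11 of 13 windows of genes that rose held the box (84.6%), as did 3 of 4 of those that fell (75.0%) and 4 of 8 of those that did not pass. Of the 37 boxes found, 29 lay within 150 bases before the start, a band of 150 of the 300 bases of a window. Where boxes lie in the windows of other genes was not counted, so this is no trait of these genes. The letters TCACNCCAC, a form of the sterol regulatory element, were in none of the 25 windows and in 1.12% of all windows, and the exact form TCACCCCAC was likewise in none against 0.484%. With shares this low over all windows, finding none in 25 cannot show that the element is rarer in these genes. Forms that differ from these letters were not searched. The presence of the letters is a description and not evidence of binding.

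Windows are shown here for Hmgcs1 and Srebf2, which rose, and for Insig1 and Mylip, which fell, since all 4 carry the box whichever way they moved. They lie at chr2:53382054-53382353 on the plus strand (Hmgcs1), chr7:115543057-115543356 on the plus strand (Srebf2), chr4:8057720-8058019 on the minus strand (Insig1) and chr17:19514422-19514721 on the minus strand (Mylip) of GRCr8, each written 5′ to 3′ in the direction of the gene. Capitals mark the box, which reads ATTGG in these windows because it lies on the opposite strand. Hmgcs1 and Mylip hold a pair of boxes each, Srebf2 and Insig1 a single one.
Hmgcs1: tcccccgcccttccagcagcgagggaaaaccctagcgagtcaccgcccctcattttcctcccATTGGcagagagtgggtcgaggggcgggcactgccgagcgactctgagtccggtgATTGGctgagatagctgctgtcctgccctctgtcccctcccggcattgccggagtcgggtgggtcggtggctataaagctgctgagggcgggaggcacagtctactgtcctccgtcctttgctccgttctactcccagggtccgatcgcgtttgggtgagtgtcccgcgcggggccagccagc
Srebf2: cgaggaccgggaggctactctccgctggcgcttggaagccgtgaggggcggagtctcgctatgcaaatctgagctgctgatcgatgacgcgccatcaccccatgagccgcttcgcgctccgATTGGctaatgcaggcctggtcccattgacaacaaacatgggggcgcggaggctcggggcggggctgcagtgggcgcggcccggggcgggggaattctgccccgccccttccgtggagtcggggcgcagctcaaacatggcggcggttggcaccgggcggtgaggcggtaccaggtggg
Insig1: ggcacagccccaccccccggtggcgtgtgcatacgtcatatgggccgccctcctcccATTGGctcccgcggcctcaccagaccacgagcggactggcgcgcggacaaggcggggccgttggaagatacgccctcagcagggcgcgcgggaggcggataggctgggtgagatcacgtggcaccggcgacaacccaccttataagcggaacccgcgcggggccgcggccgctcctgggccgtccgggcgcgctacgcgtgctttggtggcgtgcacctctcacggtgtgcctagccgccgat
Mylip: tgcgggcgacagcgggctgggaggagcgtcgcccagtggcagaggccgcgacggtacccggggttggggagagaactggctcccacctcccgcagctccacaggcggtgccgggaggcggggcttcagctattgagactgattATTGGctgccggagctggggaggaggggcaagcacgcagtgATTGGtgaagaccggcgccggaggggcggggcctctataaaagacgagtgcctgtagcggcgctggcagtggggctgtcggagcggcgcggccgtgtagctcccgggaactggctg

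On the efflux side, 3 of 5 genes fell. Nr1h3, which encodes LXR alpha, the form abundant in macrophages and fat, had a decrease nearly as large as the rise of Sqle. It was at 84.6, 75.5 and 58.4 TPM in Intact, at 57.8, 53.5 and 51.5 TPM in Sham and at 19.7, 20.4 and 21.8 TPM in pMx. All 3 groups were separate, in descending order, and the pMx mean was 0.38 of the Sham mean (log2 fold change -1.35, SE 0.12, adjusted p = 0.00011). Nr1h2, encoding the widely expressed LXR beta, was at 68.2 to 74.4 TPM in Sham and 68.9 to 73.9 TPM in pMx. These ranges overlapped almost fully, with a difference of -0.01 and an interval of -0.18 to 0.16. Nr1h2 was well above Nr1h3 in every pMx library, and by less it was also above Nr1h3 in every Sham library. In Intact their levels overlapped (72.8 to 87.1 TPM for Nr1h2 and 58.4 to 84.6 TPM for Nr1h3).

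Mylip, the LXR target that lowers lipoprotein receptors, was at 94.6, 90.7 and 64.4 TPM in Intact, at 74.9, 66.4 and 67.3 TPM in Sham and at 42.6, 43.0 and 35.7 TPM in pMx. Every pMx library was below every other library (-0.77, SE 0.14, adjusted p = 0.00358). Abcg1, an exporter that loads sterol onto HDL, was at 54.0, 46.0 and 32.1 TPM in Intact, 50.2, 53.4 and 46.9 TPM in Sham and 32.4, 32.9 and 31.1 TPM in pMx. It fell relative to Sham (-0.63, SE 0.16, adjusted p = 0.0156), while Intact replicate 3 was as low as the pMx libraries. Without Sham replicate 2 Abcg1 no longer passed, with an adjusted p of 0.0510, and the LXR and efflux genes that fell were then 2 rather than 3. Abca1, the other main exporter, was at 32.1, 26.5 and 17.1 TPM in Intact, at 30.1, 35.2 and 26.2 TPM in Sham and at 24.7, 28.9 and 20.6 TPM in pMx. The groups overlapped and Abca1 did not pass (-0.30, interval -0.80 to 0.21, adjusted p = 0.34).

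Soat1, which esterifies cholesterol for storage, differed from the efflux genes in direction. It was at 12.1, 11.4 and 6.97 TPM in Intact, at 17.5, 19.1 and 15.4 TPM in Sham and at 32.7, 32.6 and 32.8 TPM in pMx. The groups rose in separate steps, and the pMx libraries were within 1 TPM of each other. Its log2 fold change from Sham to pMx was 0.88 (SE 0.18, adjusted p = 0.00482).

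Expressed per library, the mean log2(TPM + 1) of the 18 enzymes minus that of the 5 LXR and efflux genes was -2.17, -2.07 and -1.87 in Intact, -1.79, -1.81 and -1.89 in Sham and -0.48, -0.73 and -0.47 in pMx. The pMx libraries lay more than 1 log2 unit above all others, and Intact replicate 3 lay inside the range set by the other Intact and Sham libraries. In summed TPM, the enzymes were at 282 to 336 in Intact, 303 to 357 in Sham and 497 to 566 in pMx. The efflux set summed to 245 to 341, 260 to 284 and 178 to 199 TPM. These summaries describe the chosen genes, and no test was made of them.

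**Figure D3:**
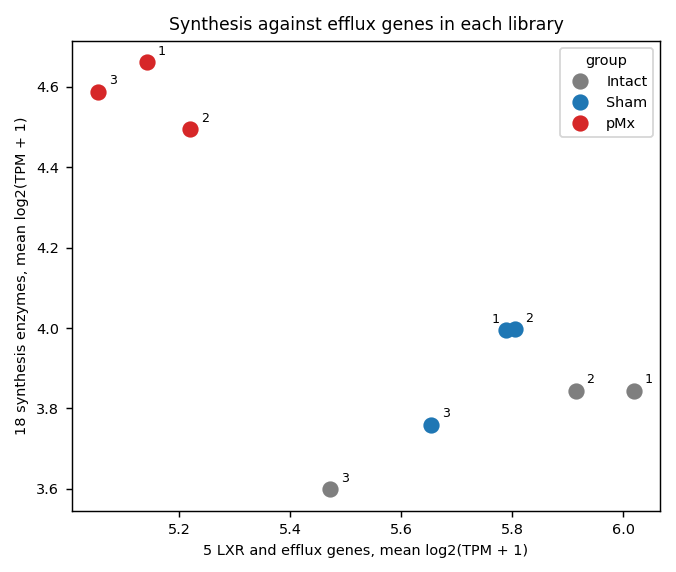
Mean log2(TPM + 1) of the 18 synthesis enzymes (vertical axis) against that of the 5 LXR and efflux genes (horizontal axis), 1 point per library with its replicate number, colored by group. The pMx libraries (enzymes 4.49 to 4.66, efflux 5.05 to 5.22) lie above and to the left of the Sham and Intact libraries (enzymes 3.60 to 3.996, efflux 5.47 to 6.02).

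Markers of some other cells also changed in pMx versus sham, while other marker lists were mixed or did not pass. The summed TPM of 10 adipocyte markers was 3404 to 7306 in Intact, 4480 to 4876 in Sham and 330 to 507 in pMx, and all 10 fell in pMx versus sham. Among them Adipoq, adiponectin, was at 880, 699 and 649 TPM in Sham and 3.20, 0.71 and 11.7 TPM in pMx, and Lep, leptin, was at 0, 0 and 0.04 TPM in pMx. Macrophage markers summed to 2919 to 4936, 7435 to 8171 and 8111 to 8501 TPM. Of the 11 macrophage markers tested, 1 rose (Cd68, a general macrophage marker) and 3 fell in pMx versus sham. Among the latter Cd163, a receptor of resident macrophages, was at 27.8, 26.3 and 27.7 TPM in Sham and 5.03, 6.38 and 3.75 TPM in pMx. Schwann cell markers summed to 656 to 800 TPM in Sham and 294 to 310 TPM in pMx, and 9 of 10 fell. Cell cycle genes summed to 161 to 210 TPM in Sham and 389 to 431 TPM in pMx, and 12 of 12 rose. Of 10 endothelial markers 4 fell, of 10 synovial fibroblast markers 4 rose and 3 fell, and of 10 fibrocartilage markers 3 rose and 3 fell. None of 10 skeletal muscle markers passed or had an unadjusted p below 0.05 in limma. Beside these marker counts, 17.7% of all genes were called higher and 18.9% lower in pMx versus sham. The parts of adipocytes, macrophages, Schwann cells and dividing cells in the results on the cholesterol genes were not tested.

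The question of what surgery alone did to these genes is addressed by sham versus intact. Few changed: 3 of 30 rose (Lss, Tm7sf2 and Soat1), none fell and none was a DEG, where 6.73% of all genes were called higher, 5.97% lower and 1.96% as DEGs. At an unadjusted p below 0.05 in limma, 6 of the 30 were higher and 3 lower, and none of these had an absolute log2 fold change above 1. The median log2 fold change was 0.14 for the enzymes and -0.13 for the LXR and efflux genes, against -0.02 for all genes. In the same comparison 11 of 12 cell cycle genes and 5 of 11 macrophage markers rose.

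Soat1 had the largest of these changes, 0.75 (SE 0.18, adjusted p = 0.0302), followed by Lss at 0.42 (SE 0.11, adjusted p = 0.0429) and Tm7sf2 at 0.40 (SE 0.096, adjusted p = 0.0334). For each of them the 3 Sham libraries lay above the 3 Intact libraries. These calls were close to the threshold: Lss and Tm7sf2 were each lost in 7 of the 9 analyses that left out a library, Soat1 in 4, and none of the 3 passed when only the 6 libraries of the comparison were fitted. Nr1h3 was lower in all Sham than in all Intact libraries without passing (-0.40, adjusted p = 0.0678), as was Pmvk (-0.22, adjusted p = 0.0711). Without Intact replicate 3, the library with muscle transcripts, the 5 LXR and efflux genes had 2 that fell and the enzymes 1 that rose and 1 that fell.

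For pMx versus intact, 15 of the 18 enzymes rose and 1 fell, with a median of 0.91, and 2 of the 5 LXR and efflux genes fell, with a median of -0.41. Over the 30 genes 18 rose and 6 fell, in a comparison in which 23.4% of all genes were called higher and 27.1% lower. As DEGs there were 10 of 30, 8 of them higher, against 14.3% of all genes. This comparison shares the pMx libraries with pMx versus sham and the Intact libraries with sham versus intact, so it is not independent of either. Sqle was 3.90-fold and Tm7sf2 3.37-fold higher in mean TPM in pMx than in Intact, and Soat1 3.22-fold. The fall of Nr1h3 reached -1.75 (SE 0.12, adjusted p = 1.05e-05) and that of Mylip -1.01 (adjusted p = 0.000496). Mvk and Nsdhl, which did not pass against Sham, rose against Intact (0.56 and 0.44), and Ggps1 fell (-0.33, adjusted p = 0.0332), a call lost in 5 of the 9 analyses that left out a library and in 2 of the 10 others. Without Intact replicate 3, the LXR and efflux genes that fell numbered 4 of 5.

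The other genes of sterol and lipid metabolism were taken from 6 lists, from which at most 3 genes each are named, those with the largest change among genes that passed without overlap of the groups. Of 10 genes of SREBP processing and sterol sensing, 2 rose (20%) and 1 fell (10%) in pMx versus sham, with a median of 0.08. Over all genes 17.7% were called higher and 18.9% lower. Tmem97, a sterol-responsive membrane protein known as a SREBP target, was at 21.1, 18.03 and 17.6 TPM in Intact, at 32.3, 30.8 and 22.7 TPM in Sham and at 107, 94.1 and 99.8 TPM in pMx. Its 3 groups were separate in ascending order, and its mean rose 3.51-fold over Sham (log2 fold change 1.79, SE 0.13, adjusted p = 4.53e-05). Syvn1, a ubiquitin ligase of the endoplasmic reticulum, rose by 0.68, and Rnf139, another such ligase, fell by 0.29 on the log2 scale.

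Of 13 sterol transport genes, whose median was 0.02, 3 rose (23.1%) and 2 fell (15.4%), beside 17.7% and 18.9% of all genes. The largest changes were those of Gramd1a, which moves sterol from the plasma membrane to the endoplasmic reticulum, at 0.36, Lamp2 of the lysosomal membrane at -0.36 and Osbpl8, a lipid exchanger at membrane contacts, at 0.33. Of 12 genes that use farnesyl or geranylgeranyl diphosphate 4 rose (33.3%) and none fell, with 0 lower at an unadjusted p below 0.05 in limma (median 0.17). Fntb, the beta subunit of farnesyltransferase, rose by 0.75 (adjusted p = 0.00208), Icmt, which methylates prenylated proteins, by 0.41 and Rabggta, which prenylates Rab proteins, by 0.38.

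Among 12 genes of lipoprotein uptake and ester hydrolysis, 2 rose (16.7%) and 6 fell (50%), beside 17.7% and 18.9% of all genes (median -0.38). Cd36, a scavenger and fatty acid receptor, was at 45.2, 53.0 and 45.0 TPM in Sham and 4.70, 4.16 and 6.46 TPM in pMx (log2 fold change -3.01, SE 0.19, adjusted p = 2.9e-05). Lipe, hormone-sensitive lipase and also one of the adipocyte markers, fell by 1.56 on the log2 scale. Lrp8, a receptor for lipoproteins and reelin, was at 0.99, 0.94 and 0.88 TPM in Sham and 3.29, 3.29 and 3.28 TPM in pMx, a log2 fold change of 1.15. The receptors on this list thus moved in both directions.

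Oxysterol and HDL genes were listed as 9, of which 8 could be tested (median -0.01). Of these 2 rose (25%) and 2 fell (25%), beside 17.7% and 18.9% of all genes. Cyp27a1, a sterol hydroxylase that makes an LXR-activating oxysterol, was at 14.1, 12.8 and 13.6 TPM in Sham and 5.94, 4.81 and 5.24 TPM in pMx (-1.20, adjusted p = 5.57e-05). Pltp, a plasma phospholipid carrier and a known LXR target, was at 896, 801 and 860 TPM in Sham and 456, 513 and 386 TPM in pMx (-0.92, adjusted p = 0.00271). Cyp7b1, which breaks down oxysterols, rose by 0.86 (adjusted p = 0.00238). Ch25h, another oxysterol-making hydroxylase, named here after its values were seen, was higher in all pMx than in all Sham libraries without passing (0.53, adjusted p = 0.146).

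In the fatty acid arm, which SREBP1 controls, 1 of 12 genes rose, 4 fell (33.3%, beside 18.9% of all genes) and 7 did not pass, with a median of -0.57. The difference between this arm and the cholesterol enzymes was not tested. The gene that rose was Fads2, a fatty acid desaturase named here after its values were seen, with a log2 fold change of 0.47 (adjusted p = 0.0364). Srebf1, the gene of SREBP1 and an LXR target, was at 57.6, 29.1 and 17.5 TPM in Intact, 42.1, 43.0 and 34.0 TPM in Sham and 14.5, 12.8 and 12.4 TPM in pMx. All pMx libraries were below all others (-1.51, SE 0.35, adjusted p = 0.00935), the reverse of Srebf2. Scd, the fatty acid desaturase, was at 180, 495 and 407 TPM in Sham and 3.42, 4.33 and 1.73 TPM in pMx, and Thrsp, a lipogenic regulator of fat, was at 346, 462 and 375 TPM and 1.79, 0.56 and 4.86 TPM. Their log2 fold changes were -6.37 and -7.06. Over the same libraries the adipocyte marker Adipoq changed by -7.36, and the part of fat cells in the falls of these genes was not tested.

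**Figure D4:**
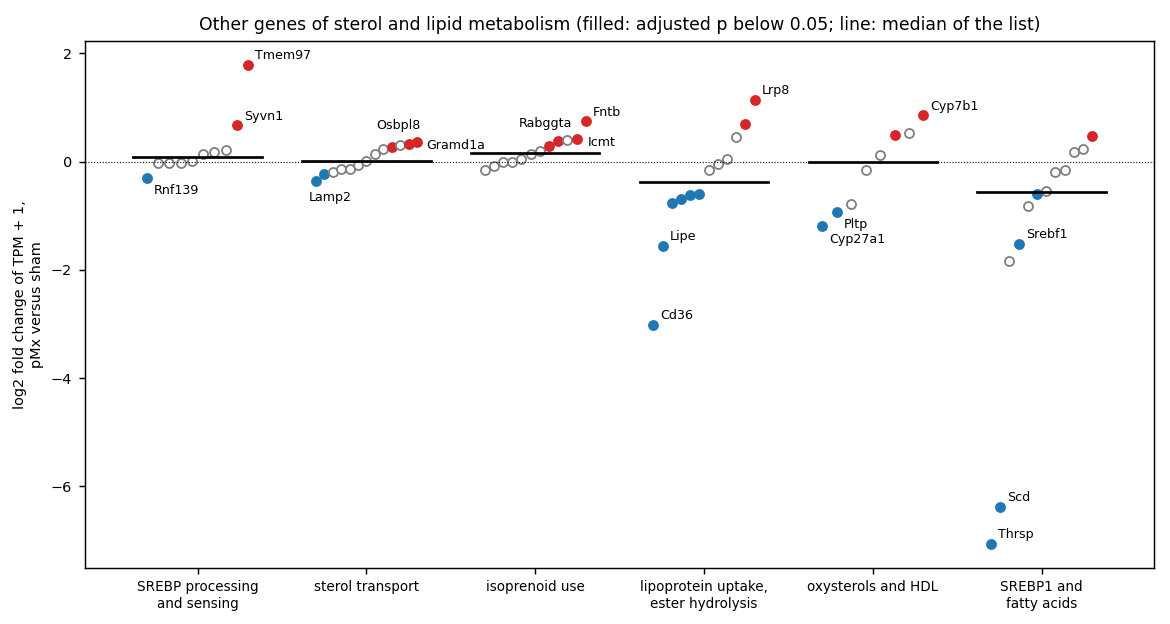
Difference of log2(TPM + 1) in pMx versus sham (vertical axis) for the tested genes of 6 further lists (horizontal axis), 1 point per gene. Filled points have an adjusted p below 0.05, black lines are list medians, and the named genes have their values in the text. The list medians lie between -0.57 and 0.17, with Tmem97 highest at 1.79 and Thrsp lowest at -7.06.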

How the data were processed

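RNA from 9 rat libraries was sequenced at BGI on the DNBSEQ platform after poly(A) selection with a dUTP second strand. The authors deposited TPM for 17602 genes, computed in the Dr. Tom system. The submitters' processing notes name HISAT2 2.0.4 and the build mRatBN7.2, while the counter, its strand setting, the annotation and any filter are not given in the sources used here. Samples were grouped by their titles, and 0 columns of per-sample values were left unmapped. Identifiers were matched to RefSeq for 17419 of 17602 genes.

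From the TPM, log2(TPM + 1) was fitted in limma 3.58.1 (R 4.3.3), with 1 mean per group over all 9 libraries, a mean-variance trend and Benjamini-Hochberg adjustment over 16512 genes in each comparison. The calculation was tested on simulated data. The libraries were labelled as biological replicates, but nothing states how many animals each held or whether libraries of a group shared an animal. According to the paper, meniscectomy was done on both knees. The p-values therefore measure the spread between these libraries, which need not be the spread between animals. All 30 genes were accounted for, and at most 3 genes per other list and up to 3 markers per marker list were named, besides Fads2 and Ch25h, which were named after their values were seen. The genes and lists were chosen with earlier results of these data known. The 19 alternatives were 2 pseudocounts, 2 filters, 2 rescalings, 3 other fits, the replicate block and leaving out each library.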

Additional observations from a re-analysis of the deposited data

How the results depend on the processing

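In pMx versus sham, 22 of the 30 genes passed, all 22 did so in the 10 alternatives that kept every library, and 20 did so in all 9 that left a library out, the exceptions being Insig2 (lost in 4) and Abcg1 (lost in 1). Some alternatives also added calls to the 16 genes that rose. There were 19 with 6 libraries, 18 without Intact replicate 3 and 17 after either rescaling. The number of DEGs among the 30 genes depended on the pseudocount, with 4 at a pseudocount of 1, 7 at 0.1 and 9 at 0.01, and leaving out a library gave 3 to 7, with 7 both without Sham replicate 1 and without pMx replicate 2. In sham versus intact, enzymes passing numbered 2, but 1 with a minimum mean of 1 TPM, 3 after median-of-ratios rescaling (2 that rose and 1 that fell), 0 with 6 libraries and 0 to 2 when a library was left out (0 without Intact replicate 1, Sham replicate 1 or 2, or pMx replicate 1 or 2). LXR and efflux genes passing there numbered 0, but 1 after median-of-ratios rescaling and 0 to 2 when a library was left out, and in pMx versus intact they numbered 2, with 3 after that rescaling and 2 to 4 when a library was left out, the highest of each without Intact replicate 3. Of the 24 calls in pMx versus intact, Ggps1 was lost in 5 of the 9 and in 2 of the 10 others.

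Changes of sign occurred in genes that had not passed. In sham versus intact, Idi1 became 0.011 after median-of-ratios rescaling, and quantile normalization gave 0.0081 for Insig1, 0.020 for Scap and 0.018 for Stard4, and 0.0095 for Nr1h2 in pMx versus sham. Leaving out libraries moved Nr1h2 in pMx versus sham between -0.041 and 0.021 and Abca1 in pMx versus intact between -0.24 and 0.19. In sham versus intact the same gave -0.083 to 0.20 for Hmgcs1, -0.074 to 0.030 for Idi1, -0.057 to 0.077 for Fdps, -0.18 to 0.080 for Fdft1, -0.028 to 0.23 for Msmo1 and -0.096 to 0.19 for Hsd17b7. It gave -0.090 to 0.024 for Sc5d, -0.26 to 0.51 for Dhcr7, -0.17 to 0.070 for Insig1, -0.12 to 0.045 for Scap and -0.096 to 0.017 for Stard4. The cause was not tested.

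With the replicate block, the enzymes passing were also 14 for pMx versus sham and also 2 for sham versus intact, and were 17 rather than 16 for pMx versus intact, where the LXR and efflux genes passing were 3 rather than 2. Over all comparisons, deviations of same-numbered libraries correlated at -0.66 to 0.48 and those of differently numbered ones at -0.47 to 0.59. Of 18 best matches, 5 had the same number. Between pMx and Sham alone, same-numbered libraries correlated at 0.035, 0.37 and 0.48, and differently numbered ones at -0.47 to 0.31. Whether pMx and Sham libraries were paired by number cannot be told from this, and the sources used here do not state it. The depth is unknown, so no limit of detection can be given.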
